A study of Homo sapiens with 6 samples.

Results

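HERV17-int and LTR17 are the repeat names under which the HERV-W family of human endogenous retroviruses is annotated. HERV17-int is the internal part, which once held the viral genes, and LTR17 is the long terminal repeat that flanks it. All loci carrying exactly these names were taken from the tables, 116 of HERV17-int and 121 of LTR17, together 237 of the 433837 repeat loci listed. The RNA came from 6 libraries of HEK293T, an established line of human embryonic kidney origin with the large T antigen of SV40. In 3 libraries the cells had received a control antisense oligonucleotide (ASO) against GFP and are labelled wild type. In the other 3 they had received a chimeric ASO against U7 small nuclear RNA and are labelled U7 snRNA knockdown. Both ASOs were transfected at 100 nM, per the labels' protocols, and the design text describes the libraries within a group as biological replicates.

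HERV-W belongs to the class I (gammaretrovirus-like) endogenous retroviruses, as do HERV9, whose long terminal repeats are the LTR12 elements, and HERVH. An intact provirus has an internal part between a pair of long terminal repeats, and recombination between these often leaves a solitary one. A long terminal repeat holds a promoter and a polyadenylation signal, and so can start or end a transcript. One HERV-W copy carries the gene ERVW-1, which encodes syncytin-1, an envelope protein that fuses trophoblast cells in the placenta. U7 RNA guides the trimming of replication-dependent histone pre-mRNAs at their 3′ ends, and the series title concerns repression of HERV1/LTR12 elements by this RNA.

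Each locus is identified by its repeat name, copy number and running number, without coordinates or sequences. No genome position, gene or sequence is therefore given for a locus here, and the copy that holds ERVW-1 was not identified among the 237. The libraries held between 1926892 and 2819540 reads in repeat loci. These totals do not give the sequencing depth, because reads outside repeats are not in them. Too few reads fell in the 16 U7 loci to check the labels, 10, 6 and 12 in control libraries and 10, 4 and 6 in U7 ASO libraries. With bulk RNA, fewer cells that transcribe an element and less of its RNA per cell cannot be told apart.

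HERV-W RNA made up a small part of the counted repeat RNA in every library. Reads in HERV17-int numbered 372, 403 and 433 for controls and 463, 591 and 714 under the U7 ASO. Reads in LTR17 numbered 217, 199 and 119 for controls and 293, 437 and 429 under the U7 ASO. Together the 2 names took between 0.0279% and 0.0312% of a control library's reads and between 0.0362% and 0.0438% of a U7 ASO library's reads. Clopper-Pearson 95% intervals spanned 0.0256% to 0.0338% in the control group and 0.0336% to 0.0465% in the U7 ASO group, so they touched at the edges. These intervals cover counting error only and take each read as independent. Most counts above 0 were even numbers, so the intervals may be too narrow.

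The internal part HERV17-int gave a small difference that did not pass the test. After scaling, its level was 199, 216 and 209 CPM (counts scaled to library size) in the controls and 218, 243 and 254 CPM with the U7 ASO, or 208 ± 8.58 against 238 ± 18.6 CPM (mean ± SD, n = 3 each). The groups did not overlap, but the highest control and the lowest U7 ASO library were close, at 216 and 218 CPM. The log2 fold change was 0.20 (SE 0.20, 95% interval -0.23 to 0.62), with an adjusted p of 0.740 in edgeR's quasi-likelihood test. The interval leaves room for a rise of up to 0.62 on the log2 scale and for a small fall.

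LTR17 showed a larger difference, which did not pass the test over all repeat names. Its level was 116, 107 and 57.4 CPM in the controls and 138, 180 and 153 CPM with the U7 ASO, or 93.5 ± 31.6 against 157 ± 21.2 CPM (n = 3 each). The groups did not overlap, and control replicate 3 was well below the other controls. The log2 fold change was 0.75 (SE 0.27, 95% interval 0.18 to 1.31), with an unadjusted p of 0.0124 and an adjusted p of 0.192 (edgeR). Neither of the 2 names was called, where 2.55% of the 2236 names tested were called in either direction, and DESeq2 and limma-voom called neither. At an unadjusted p under 0.05, LTR17 passed and HERV17-int did not, where 14.6% of all names passed. Both names had non-overlapping groups with U7 ASO higher, as did 9.93% of all names, and 10.2% of all names had the U7 ASO lower.

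**Figure D1:**
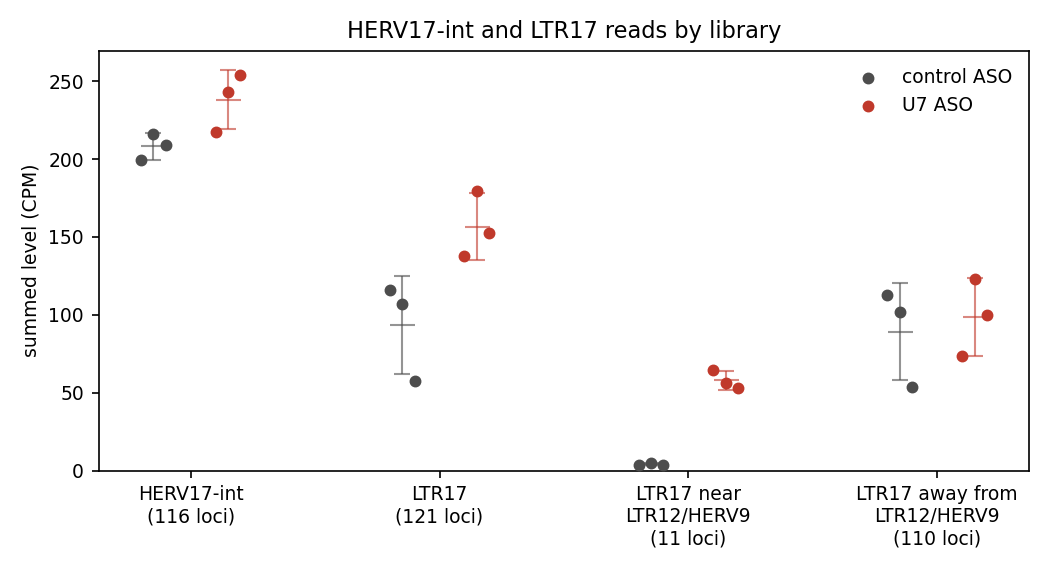
Summed level in CPM on the y axis for HERV17-int, LTR17, the 11 LTR17 loci within 20 running numbers of a listed LTR12 or HERV9 locus and the other 110 LTR17 loci. Points are libraries (grey control ASO, red U7 ASO), and horizontal marks with bars are the mean ± SD of 3 libraries. The 11 loci near LTR12 or HERV9 sit between 3.75 and 4.83 CPM in the controls and between 53.0 and 64.4 CPM with the U7 ASO, while the groups overlap for the other 110.

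The 2 names were also set against each other within each library, which needs no scaling between libraries. The log2 ratio of LTR17 to HERV17-int reads was -0.78, -1.02 and -1.86 for the control ASO and -0.66, -0.43 and -0.73 for the U7 ASO. The mean difference was 0.61, and without control replicate 3 it was 0.29. The exact two-sided permutation test gave p = 0.1, the smallest p that 3 libraries against 3 allow, and 0.133 after adjustment over the 4 ratios computed. No ratio could therefore pass.

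Reads were thinly spread over the copies. In a library between 36 and 56 of the 116 HERV17-int loci and between 21 and 49 of the 121 LTR17 loci had a read. Only 13 HERV17-int and 4 LTR17 loci had a read in all 6 libraries, and 55 and 74 had reads in 1 library only. The median locus held 10.0 reads over the 6 libraries for HERV17-int and 6.0 for LTR17, whereas the 10 loci with the most reads took 52.3% and 50.2% of each name's reads. Reads in the U7 ASO group alone were seen at 36.2% of the HERV17-int and 53.7% of the LTR17 loci, against 45.7% of all listed loci. Reads in the control group alone were seen at 19.8% and 20.7%, against 26.8% of all listed loci. The U7 ASO libraries held more reads in repeat loci, so these shares were not compared at equal depth.

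Of the 237 loci, 15 passed the filter on low counts, 12 of HERV17-int and 3 of LTR17. The other 222 entered the sums but had too few reads to be tested. The 15 tested loci held 56.3% of the HERV17-int and 34.9% of the LTR17 reads. One LTR17 locus was called higher with the U7 ASO and 0 members were called lower, where 4.49% of the 14380 loci tested were called higher, 0.473% lower and 4.96% in either direction. DESeq2 and limma-voom also called 0 lower. At an unadjusted p under 0.05, 2 of the 15 passed in edgeR, both higher, where 12.3% of all tested loci passed. Log2 fold changes were above 0 at 9 of the 15, against 52.7% of all tested loci, and the median was 0.40, against 0.06 over all tested loci. The filter can pass a locus through its high group, so these figures describe the tested loci and not the family.

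The called locus was LTR17_dup12_4391442. It held 0, 4 and 1 reads in the controls and 77, 77 and 114 reads with the U7 ASO. The locus was nearly without reads in the controls and was the LTR17 locus with the most reads in each U7 ASO library. On the scale of single loci its level rose from 1.11 ± 1.42 to 52.9 ± 8.22 CPM (n = 3 each), a log2 fold change of 5.50 (SE 0.74, 95% interval 3.91 to 7.10) with an adjusted p of 0.000309 (edgeR). In limma-voom the adjusted p was 0.0501 and the call was lost, at a log2 fold change of 5.76. In the other 13 alternatives the adjusted p was between 6.88e-09 and 0.0168.

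This locus carried much of what the name LTR17 showed. It made up 55.8% of the difference between the group means of LTR17, 35.3 of 63.2 CPM on the scale of the repeat names. Without it LTR17 reads numbered 217, 195 and 118 for controls and 216, 360 and 315 under the U7 ASO. The groups then overlapped, and the log2 fold change was 0.38. No test is given, since the locus left out was chosen for its difference.

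Repeats listed around the called locus also had more reads after the U7 ASO. A locus of LTR12C, the HERV9 long terminal repeat, lay 17 running numbers further on and held 16 control reads and 1261 U7 ASO reads. The stretch from 12 running numbers before the called locus to this LTR12C locus, chosen after its values were seen, holds 23 listed loci. Apart from the LTR17 and LTR12C loci it has 20, of which 19 had more reads with the U7 ASO and 13 had no control read. A locus is listed only if it has a read, so those 13 had to have more U7 ASO reads. Over all listed loci, 45.7% had reads in the U7 ASO group alone. These 20 loci belong to unrelated repeats, among them Alu, MIR, L1 and MLT1 copies. Their reads summed to 10, 8 and 9 for controls and 219, 251 and 339 under the U7 ASO. Only 5 of the 20 were tested and 1 of them was called, MIRb_dup4261_4391457, with 0 control reads and 131 U7 ASO reads. The exception was MamGypLTR2b_dup7_4391445, with 4 control reads and 0 U7 ASO reads. A second LTR17 locus, LTR17_dup13_4391444, had 0 control reads and 21, 0 and 7 U7 ASO reads. Pooled over the libraries, its U7 ASO level was 7.35-fold that of a floor of 3 reads over the control group. This is no lower bound for each library, since U7 ASO replicate 2 had 0 reads. Whether the LTR17 reads belong to a transcript that also covers these neighbours was not tested.

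**Figure D2:**
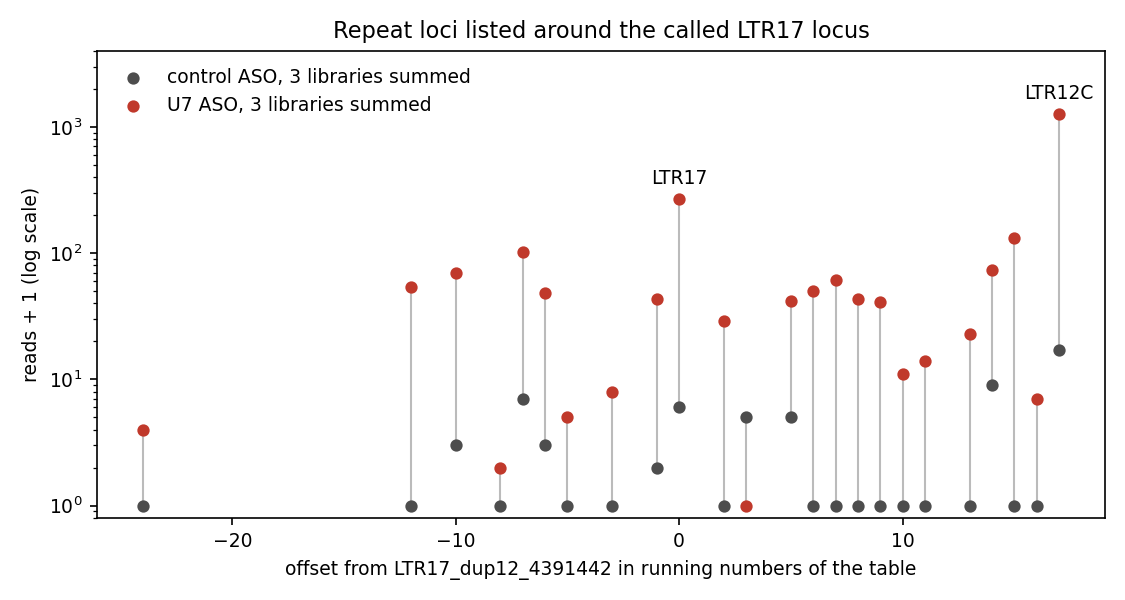
Reads plus 1 on a log scale on the y axis, summed over 3 libraries (grey control ASO, red U7 ASO), for each repeat locus listed within 24 running numbers of LTR17_dup12_4391442. The x axis is the offset in running numbers, and grey lines join the values of a locus. Nearly every listed locus from 12 before LTR17_dup12_4391442 to LTR12C at 17 has more reads with the U7 ASO.

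Members close to LTR12 or HERV9 loci were then counted, which was decided with the values in view. There were 11 LTR17 and 7 HERV17-int loci within 20 running numbers of a listed LTR12 or HERV9 locus. That is 9.09% of the LTR17 and 6.03% of the HERV17-int loci, against 2.40% of all other listed loci outside LTR12 and HERV9. A locus is listed only if it has a read, and LTR12 loci with reads only in the U7 ASO libraries count here as well. The choice of these members is therefore not free of the outcome, and no test is given for them. The same holds for all 10357 listed loci outside LTR12 and HERV9 within that distance, the members included. Summed, these had a 2.32-fold ratio of means with the U7 ASO higher, and the groups did not overlap. Of the 414 of them tested, 38.6% were called higher, against 1.16% of the 13503 tested farther away.

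The 11 LTR17 loci near LTR12 or HERV9 held 7, 9 and 8 control reads and 137, 137 and 149 U7 ASO reads. Their summed level went from 4.15 ± 0.60 to 57.9 ± 5.86 CPM. That is a 14.0-fold ratio of means, against 2.32-fold over all loci that close outside LTR12 and HERV9. The 2 ratios are not alike: LTR17_dup12_4391442 alone held 268 of the U7 ASO reads here, and the 2.32 sums 10357 loci. All 11 had more reads with the U7 ASO. Of these, 7 had no control read, so for them this follows from being listed at all. Over all listed loci, 45.7% had reads in the U7 ASO group alone. The 11 loci made up 85.1% of the difference between the group means of LTR17. Without LTR17_dup12_4391442 the other 10 held 19 control reads and 155 U7 ASO reads. In 6 of the 11 the nearest LTR12 or HERV9 locus had a control read, and these 6 held 21 control reads and 338 U7 ASO reads. Most of these were at LTR17_dup12_4391442 and LTR17_dup13_4391444, with 268 and 28 U7 ASO reads, and the other 4 held 16 control reads and 42 U7 ASO reads.

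Of these 11 LTR17 loci, some stood directly beside an LTR12C locus. LTR17_dup24_540012 had 0 control reads and 23 reads in U7 ASO replicate 1, and the running number before it is LTR12C_dup44_540011, with 0 control reads and 59 U7 ASO reads. LTR17_dup10_2772926 had 3 control reads and 16 U7 ASO reads, beside LTR12C_dup44_2772925 with 0 and 20. LTR17_dup18_3366622, 10 running numbers from an LTR12C locus, had 0 control reads and 10, 24 and 0 U7 ASO reads. Its pooled U7 ASO level was 8.93-fold that of the same floor. Apart from LTR17_dup12_4391442 these are low counts, often in 1 or 2 libraries.

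The other 110 LTR17 loci overlapped between the groups. They held 210, 190 and 111 control reads and 156, 300 and 280 U7 ASO reads, or 89.3 ± 31.4 against 98.8 ± 25.0 CPM. When only these loci were summed for LTR17, the log2 fold change was 0.15, and at a distance of 50 running numbers it was 0.10. The loci left out all had more U7 ASO reads, so the smaller difference follows from the division and is given without a test.

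The 7 HERV17-int loci near LTR12 or HERV9 held 23, 36 and 34 control reads and 76, 99 and 83 U7 ASO reads. Their level was 16.0 ± 3.52 and 35.3 ± 5.59 CPM, and the groups did not overlap. The ratio of means was 2.21, close to the 2.32 over all loci that near outside LTR12 and HERV9. The other 109 held 349, 367 and 399 control reads and 387, 492 and 631 U7 ASO reads, or 192 ± 5.06 against 203 ± 21.3 CPM, and the groups overlapped. The log2 fold change of HERV17-int without the 7 was 0.08, also given without a test.

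Most of the reads of these 7 loci came from 1 place. Between LTR17_dup25_244283 and LTR17_dup26_244292 the running numbers hold 4 HERV17-int loci, and among these lie LTR12C_dup73_244287, HERV9NC-int_dup9_244288 and LTR12C_dup74_244289. The listed order is LTR17, 2 HERV17-int loci, LTR12C, HERV9NC-int, LTR12C, 2 HERV17-int loci and LTR17, which is the order of a HERV9 provirus inside a HERV-W provirus. Coordinates would be needed to establish that. The 6 HERV-W loci held 30, 33 and 38 control reads and 76, 112 and 97 U7 ASO reads. Their level was 17.4 ± 1.17 and 38.8 ± 6.33 CPM, a 2.23-fold ratio of means, and the groups did not overlap.

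Within this stretch the loci after the HERV9 part held most of the HERV-W reads. HERV17-int_dup44_244291 had 5, 14 and 4 control reads and 22, 50 and 33 U7 ASO reads (log2 fold change 2.04, SE 0.76, adjusted p = 0.220, edgeR). HERV17-int_dup43_244290 had 18, 6 and 26 control reads and 24, 39 and 46 U7 ASO reads (log2 fold change 1.00, adjusted p = 0.671). The groups did not overlap for the first on the CPM scale and overlapped for the second. HERV9NC-int_dup9_244288, the HERV9 internal part, had 157 control reads and 483 U7 ASO reads, and LTR12C_dup74_244289 had 104 and 332. The loci before the HERV9 part were low, with 12 control reads and 34 U7 ASO reads at HERV17-int_dup42_244286 and 0 and 4 at HERV17-int_dup40_244284. This copy already had reads in the controls, where LTR17_dup12_4391442 had 5 in all.

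**Figure D3:**
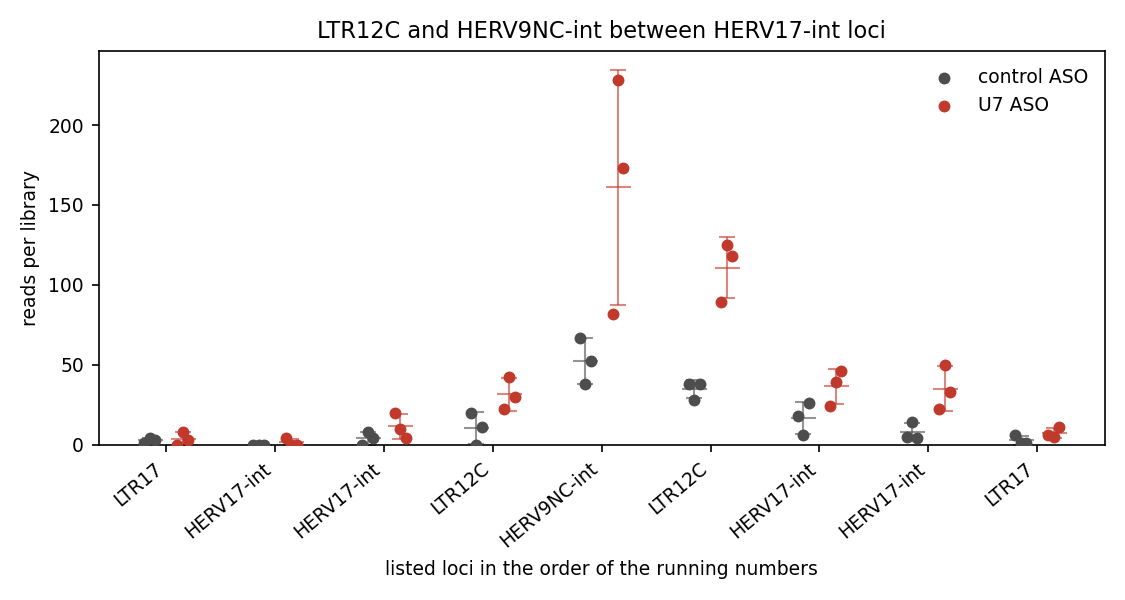
Reads per library on the y axis for the 9 listed loci from LTR17_dup25_244283 to LTR17_dup26_244292, in the order of the running numbers on the x axis. Points are libraries (grey control ASO, red U7 ASO), and marks with bars are the mean ± SD of 3 libraries. HERV9NC-int and the second LTR12C are highest, and the 2 HERV17-int loci that follow have 50 and 23 control reads against 109 and 105 U7 ASO reads over 3 libraries.

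The remaining well-covered HERV17-int loci moved in different directions, and none was called. HERV17-int_dup35_3086779, the member with the most reads of all, had 72, 46 and 60 control reads and 32, 14 and 62 U7 ASO reads (log2 fold change -0.87, SE 0.51, adjusted p = 0.610, edgeR). HERV17-int_dup24_1997373 had 46, 27 and 68 control reads and 32, 60 and 38 U7 ASO reads (log2 fold change -0.22). These were the most abundant copies in the controls. The second overlapped between the groups. For HERV17-int_dup35_3086779 the order rested on the scaling: with that of single loci the lowest control had 31.1 and the highest U7 ASO library 33.9 CPM, and with that of the repeat names these were 24.7 and 22.1 CPM, so that every U7 ASO library lay below every control.

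Some internal parts had higher values with the U7 ASO without passing the test. HERV17-int_dup41_2041752 had 20, 18 and 16 control reads and 28, 34 and 72 U7 ASO reads (log2 fold change 1.15, SE 0.56, adjusted p = 0.445). HERV17-int_dup40_1360967 had 6, 0 and 8 control reads and 40, 14 and 14 U7 ASO reads (log2 fold change 2.18, SE 1.12, adjusted p = 0.494). In both the U7 ASO libraries lay above all controls, with 1 U7 ASO library far above the other 2. Neither has a listed LTR12 or HERV9 locus nearby, with the nearest listed at 2741 and 292 running numbers. Copies without a read are not listed. HERV17-int_dup59_364218 had 4, 30 and 16 control reads and 16, 64 and 54 U7 ASO reads (log2 fold change 1.27, adjusted p = 0.588), and its groups overlapped. In all, groups that did not overlap were found for 4 of the 15 tested members with the U7 ASO higher and for 0 with it lower. Over all tested loci the shares were 12.2% and 8.36%. With the scaling of the repeat names the same 4 members were higher and 1 was lower, HERV17-int_dup35_3086779, against 9.94% and 11.5% of all tested loci.

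The 3 other HERV17-int loci among the 10 with the most reads gave values close together or widely scattered. HERV17-int_dup24_3597391 had 52 reads in each group, spread from 2 to 40 within the U7 ASO libraries. HERV17-int_dup2_4343934 had 40 control reads and 46 U7 ASO reads, and HERV17-int_dup23_4722407 had 28 and 40. The log2 fold changes of these 3 loci were -0.21, 0.08 and 0.42.

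The other 2 tested LTR17 loci did not pass. LTR17_dup9_2204638 had 52, 20 and 26 control reads and 14, 38 and 40 U7 ASO reads (log2 fold change -0.23, adjusted p = 0.955). LTR17_dup10_4872905 had 17, 48 and 14 control reads and 20, 10 and 20 U7 ASO reads (log2 fold change -0.81, adjusted p = 0.830). For both the libraries overlapped, and 1 control library held more reads than the other 2 together.

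The LTR17 loci next in order were too low to be tested. LTR17_dup13_1958749 had 4, 0 and 2 control reads and 18, 32 and 6 U7 ASO reads. Its nearest listed LTR12 or HERV9 locus was 3347 running numbers away. LTR17_dup5_4840732 had 23 control reads and 19 U7 ASO reads, LTR17_dup60_1829886 had 20 and 10, and LTR17_dup26_1997376 had 18 and 10. LTR17_dup8_4993794 had 16 reads in each group, each from 1 library. LTR17_dup26_244292, at the end of the stretch with HERV9NC-int, had 8 control reads and 22 U7 ASO reads. Away from listed LTR12 and HERV9 loci, higher and lower values were mixed.

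Loci were also joined into groups when their running numbers were at most 10 apart, to bring together pieces that could belong to 1 provirus. The 237 loci formed 174 groups, of which 138 held 1 locus and 26 held both names. In 6 groups an LTR17 locus stood at each end with HERV17-int between. Many partners of a single listed locus may have no read and so not be listed. Of the 19 groups with at least 50 reads, the mean level was higher with the U7 ASO in 10. All U7 ASO libraries lay above all controls in 4 of the 19 and below them in 0. Among runs of loci of a single repeat name joined in the same way over the whole table, 18877 had at least 50 reads, and the shares were 10.6% above and 9.73% below.

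The 4 groups with no overlap were led by LTR17_dup12_4391442, HERV17-int_dup43_244290, HERV17-int_dup41_2041752 and HERV17-int_dup40_1360967. That of HERV17-int_dup40_1360967 had an LTR17 locus at each end, and its reads numbered 6, 9 and 8 for controls and 48, 26 and 26 under the U7 ASO. Its level was 3.97 ± 0.81 and 14.2 ± 7.31 CPM. Another group with LTR17 at each end, that of HERV17-int_dup24_1997373, went from 28.2 ± 7.44 to 19.6 ± 4.82 CPM, with overlap. HERV-W copies of the same listed structure had mean differences of either sign.

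**Figure D4:**
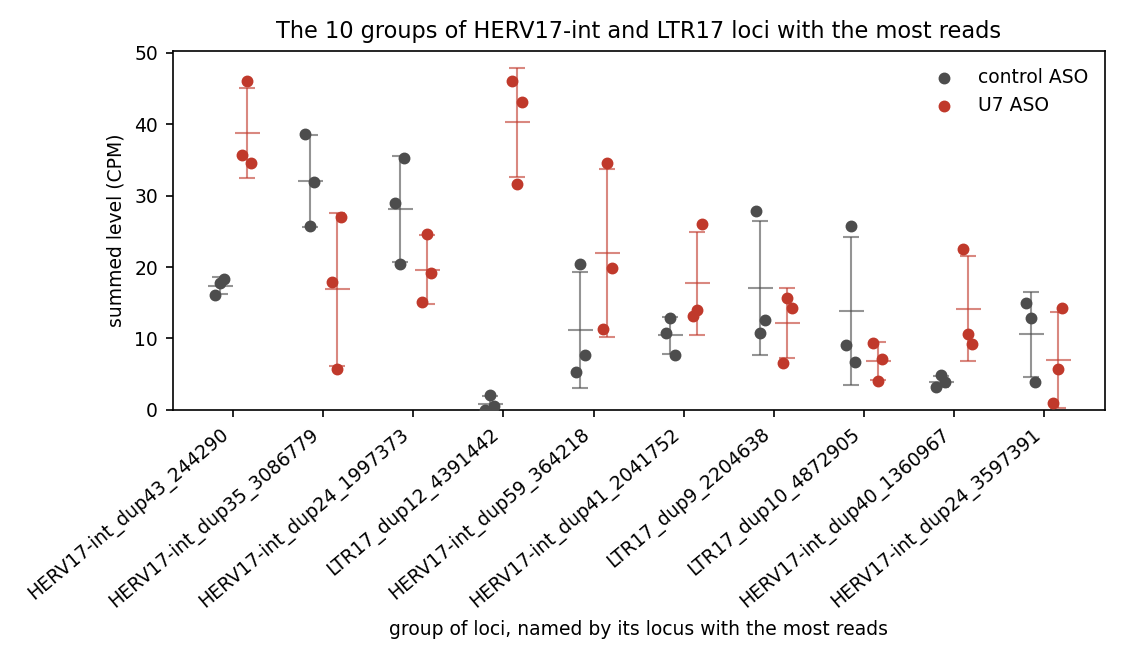
Summed level in CPM on the y axis for the 10 groups of HERV17-int and LTR17 loci with the most reads, each named on the x axis by its locus with the most reads and ordered by total reads. Points are libraries (grey control ASO, red U7 ASO), and marks with bars are the mean ± SD of 3 libraries. The groups of LTR17_dup12_4391442, HERV17-int_dup43_244290, HERV17-int_dup41_2041752 and HERV17-int_dup40_1360967 have every U7 ASO library above every control, and the other 6 overlap.

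LTR17 loci were also divided by whether a listed HERV17-int locus lay close, and the difference between the divisions was not tested. The 32 LTR17 loci within 10 running numbers of a listed HERV17-int locus held 48, 56 and 27 control reads and 36, 65 and 58 U7 ASO reads, or 22.9 ± 8.85 against 21.4 ± 4.95 CPM. The 89 LTR17 loci with no listed internal part that close went from 70.5 ± 23.7 to 135 ± 16.3 CPM, and the groups did not overlap. Without LTR17_dup12_4391442 the latter had 69.7 ± 23.7 and 99.1 ± 19.5 CPM, and the groups overlapped. The called locus is among the 89, as are 9 of the 11 LTR17 loci near LTR12 or HERV9.

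The internal parts of other class I families gave a frame for HERV17-int. Of the 36 such names in the list used, all were listed and 33 were tested, 4 rose, 0 fell and 29 did not pass in edgeR. DESeq2 and limma-voom also called 4 higher and 0 lower. Over all 2236 names tested, 1.52% rose and 1.03% fell at an adjusted p under 0.05 in edgeR. At an unadjusted p under 0.05 edgeR had 8 higher and 1 lower, HERVFH19-int, where 14.6% of all names passed in either direction. Of the 4, HERV9-int, HERV9NC-int and HERV9N-int are the HERV9 internal parts, with log2 fold changes of 3.79, 3.67 and 1.16. The fourth, HERVH48-int, rose by 2.17 on the log2 scale (adjusted p = 0.00112, SE 0.37, edgeR), with 13.7 ± 4.19 CPM in the controls and 61.9 ± 8.18 CPM after the U7 ASO. The median log2 fold change of the 33 was 0.06, against -0.01 over all names tested. HERV17-int stood at rank 14 of these 34 names by log2 fold change and at rank 6 by its level in the controls, a level that is not per length.

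**Figure D5:**
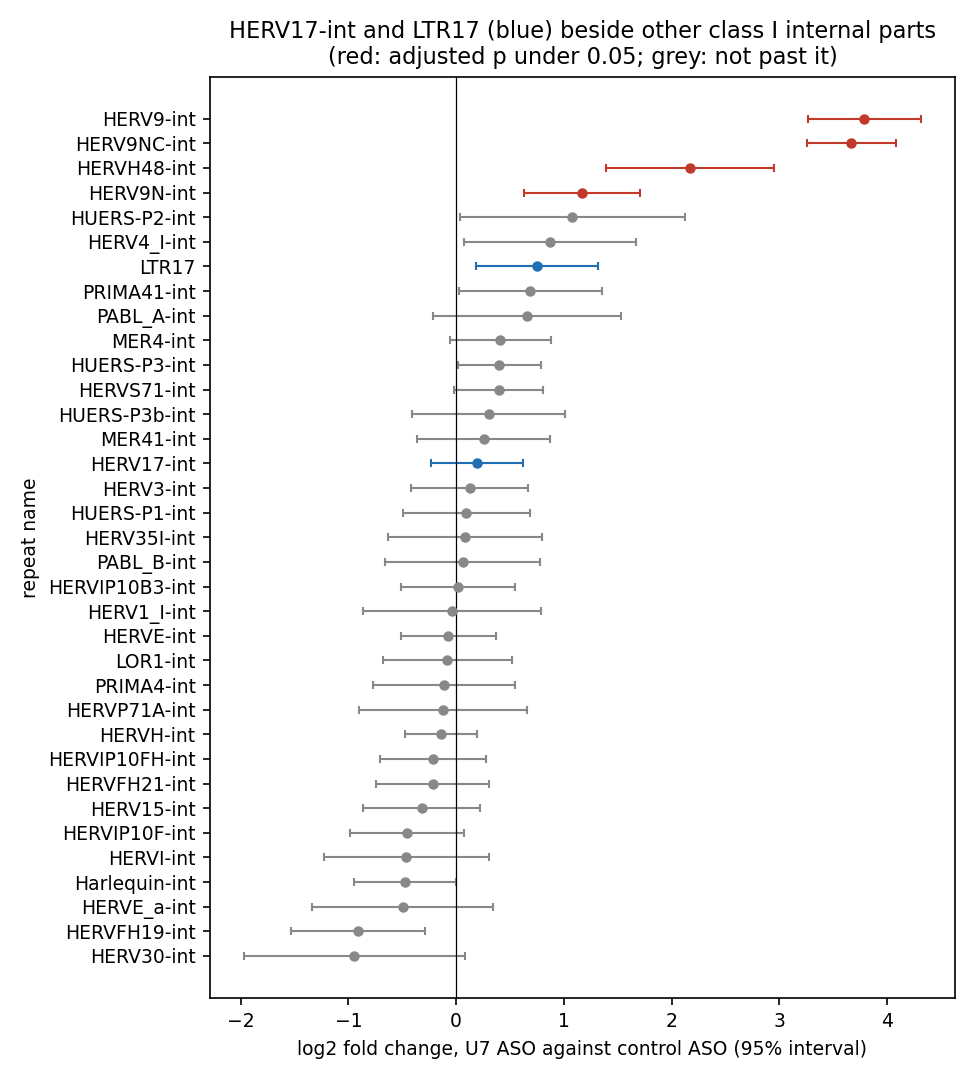
Log2 fold change of the U7 ASO against the control ASO on the x axis, with 95% intervals, for HERV17-int and LTR17 (blue) and 33 internal parts of other class I families on the y axis. Red names passed an adjusted p of 0.05 in edgeR and grey names did not. The interval of HERV17-int runs from -0.23 to 0.62 and those of HERV9-int and HERV9NC-int lie above 3.

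Within libraries, HERV17-int was compared with 3 of these names. The log2 ratio of HERV17-int to HERV9-int reads went from 1.99 ± 0.36 in control libraries to -1.62 ± 0.26 after the U7 ASO (n = 3 each, exact permutation p = 0.1, adjusted p = 0.133). HERV17-int was the more abundant of the pair in every control library and the less abundant in every U7 ASO library. Its ratio to HERVH-int went from -2.76 ± 0.10 to -2.42 ± 0.15 (exact permutation p = 0.1, adjusted p = 0.133), and the libraries did not overlap. Its ratio to HERVE-int went from -0.32 ± 0.27 to -0.06 ± 0.23 (exact permutation p = 0.3), and the libraries overlapped.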

How the data were processed

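Per the submitters' processing notes, the authors worked with featureCounts 1.5.0-p1 (Subread), STAR 2.5.3a and FastQC 0.11.5 on GRCh38 and deposited 1 table of read counts per repeat locus and library. The repeat annotation, strand setting and treatment of multi-mapping reads were not stated in these sources. Reads of near-identical copies could be placed on another copy, and reads from the opposite strand are not separated. Counts above 0 were even numbers in 73.3% to 79.0% of cases.

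Counts per locus, and counts summed per repeat name, were tested over all features with edgeR 4.0.16 (R 4.3.3, quasi-likelihood, TMM, filterByExpr with minimum count 10 and minimum total 15, two-sided). P-values were adjusted by Benjamini-Hochberg over every feature tested, with a call under 0.05. CPM values use the TMM scaling, that of the repeat names unless single loci are named. Alternatives included DESeq2 1.42.0 and limma-voom (limma 3.58.1). Ratios had 0.5 reads added, and exact tests and intervals came from scipy 1.17.1. The code was tested on simulated counts.

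Named loci were every called member and the 10 of each name with the most reads, ties included. Others were chosen after their values were seen. The members and lists were chosen with earlier results of these data known. The order of running numbers was taken as the order of the annotation: along them the copy number of a name rose in 99 of 115 steps for HERV17-int and 99 of 120 for LTR17.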

Additional observations from a re-analysis of the deposited data

How the results depend on the processing

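HERV17-int and LTR17 stayed above 0 and short of the threshold as sums in 14 other settings of scaling, filter, tool, block and libraries, with log2 fold changes from 0.16 to 0.27 and from 0.50 to 0.95. Sums without loci chosen with their values in view were added after seeing the data and are not counted here. Leaving out each library gave 0.16 to 0.27 and 0.50 to 0.95, the lowest for LTR17 without control replicate 3. The number of members called higher was 1 in 13 of 14 alternatives and 0 with limma-voom, and that called lower was 0 in all 14. Over all 14380 loci tested, limma-voom called 341 higher and 79 lower, where edgeR called 645 and 68. At an unadjusted p under 0.05 limma-voom gave 2 of the 15 tested members higher and 1 lower. The share over all loci at that threshold is not given for limma-voom, so these counts have no background. For loci that were not called, leaving out 1 library turned the sign of small log2 fold changes, with ranges of -0.039 to 0.98 for HERV17-int_dup23_4722407, -0.53 to 0.067 for HERV17-int_dup24_1997373 and -1.56 to 0.30 for HERV17-int_dup24_3597391. The ranges were -1.17 to 0.016 for LTR17_dup10_4872905, -0.46 to 0.28 for LTR17_dup9_2204638 and -0.88 to 0.63 for HERV17-int_dup2_4343934. That last locus was also at -0.062 with upper-quartile scaling, -0.069 with library totals, -0.053 with limma-voom and -0.0081 with the replicate block, and the cause was not tested. Upper-quartile scaling and library totals moved the median of all tested loci from 0.06 to -0.09.

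The replicate numbers were not treated as pairs, since not every same-numbered correlation passed 0.1: the deviations correlated at 0.11, -0.03 and 0.12 over repeat names. Over names, replicates 1 and 3 correlated best with their own number and replicate 2 did not. Over single loci the same-numbered values were 0.065, -0.034 and 0.036. There control replicate 3 correlated best with U7 ASO replicate 2, at 0.047, so the evidence was mixed. With the number as a block, LTR17 had a log2 fold change of 0.80 (adjusted p = 0.0575) and HERV17-int 0.19 (adjusted p = 0.596), and the names called over the whole table went from 34 higher and 23 lower to 59 and 74. No within-library ratio could pass, and none changed direction. Gaps of 3 and 20 gave 181 and 171 groups of loci.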
